A study of Mus musculus with 24 samples.

Results

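BCI-838 given together with a running wheel was compared with the running wheel alone in the dentate gyrus of APP/PS1 mice. The labels put 10 of the 24 libraries of the series in these groups, 5 with BCI-838 and exercise (called combined libraries here) and 5 with exercise without the drug. Every mouse behind these 10 libraries carried the APP/PS1 transgenes and had free access to a wheel for 1 month. The combined group also received daily oral BCI-838 at 5 mg/kg over 1 month, and the series design speaks of drug or vehicle treatment. A further 9 libraries from sedentary APP/PS1 mice, 4 with BCI-838 and 5 controls without it, served to ask whether the response to the drug differed with the wheel. The 5 wild-type (WT) C57BL6/J libraries entered the estimate of the spread and are given as levels. APP/PS1 mice express transgenes for the amyloid precursor protein and presenilin 1 and form amyloid plaques. The promoters of the transgenes, the ages of the mice and how far they ran do not appear in the sources used here.

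BCI-838 is a pro-drug, taken by mouth, whose active form blocks mGluR2 and mGluR3, members of the metabotropic glutamate receptor family. These receptors sit largely on and near presynaptic terminals, where they couple to Gi proteins and restrain glutamate release, and mGluR3 is also made by astrocytes. Voluntary running is known to raise the birth of new granule neurons in the adult dentate gyrus and to act on its blood vessels. The series set out to study how the drug and the wheel act on neurogenesis and behaviour.

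Total RNA of the dissected dentate gyrus was sequenced, and the deposited counts of the 10 libraries summed to between 51582611 and 64632882. The tissue label was checked against granule neuron markers. Prox1, the transcription factor of granule neurons, lay between 53.7 and 175 CPM (read counts relative to the library total after TMM scaling) in the 10 libraries, and C1ql2, a secreted mossy fibre protein, between 106 and 453 CPM. A library of each group stood apart. Combined replicate 5 held 297 CPM of Ttr, the transthyretin transcript of the choroid plexus, against at most 7.89 CPM in the other 9 libraries. Exercise replicate 4 held 7.79 CPM of Pou4f1, a dorsal midbrain transcription factor, against at most 0.974 CPM in the others. In bulk tissue, fewer cells of a type and less RNA per cell cannot be told apart. Since replicates were separate mice, the spread below is between mice.

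No gene of 18286 tested reached a Benjamini-Hochberg adjusted p under 0.05 in the quasi-likelihood F test of edgeR, and the lowest adjusted p was 0.0855. At an unadjusted p under 0.05 there were 3210 genes, or 17.6% of those tested, of which 1596 (8.73%) were higher with the drug and 1614 (8.83%) lower. At an adjusted p under 0.1 there were 31 genes (0.170%). In 98 genes (0.536%) all 5 combined libraries lay above all 5 exercise libraries, and in 158 genes (0.864%) all lay below. DESeq2 called 374 genes (2.05%), 208 higher (1.14%) and 166 lower (0.908%), and limma voom with quality weights called 1012 (5.53%), 567 higher (3.10%) and 445 lower (2.43%). Both of these tools called 325 genes in common. DESeq2 gave no adjusted p for 4255 genes, which could not be called, and its shares here and below are over all 18286. With edgeR, leaving out exercise replicate 3 gave 400 calls, leaving out combined replicate 2 gave 83, exercise replicate 4 gave 10 and combined replicate 4 gave 3, while leaving out any of the other 6 libraries gave 0. The median standard error of a log2 fold change was 0.148, and the median log2 fold change of all genes was -0.018.

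The targets of the drug showed no difference beyond the spread. Grm2, which encodes mGluR2 and lies on chromosome 9 from 106643095 to 106656082 (mm10), was at 79.4, 128, 123, 59.5 and 37.7 CPM in the combined libraries and at 141, 127, 115, 77.4 and 119 CPM in the exercise libraries. The groups overlapped, with the lowest values in combined replicates 4 and 5, and the log2 fold change was -0.44 (SE 0.30, adjusted p = 0.448 by edgeR). Grm3, which encodes mGluR3, averaged 41.9 ± 7.92 CPM in the combined group and 42.2 ± 8.05 CPM in the exercise group (SD, n = 5 each), which is -0.01 on the log2 scale (SE 0.17, adjusted p = 0.977 by edgeR).

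The transgene-related transcripts were checked in all groups. App, the amyloid precursor protein gene, averaged 3867 ± 303 CPM in the combined group, 3218 ± 506 CPM with exercise, 3542 ± 228 CPM with the drug alone (n = 4), 3379 ± 371 CPM in APP/PS1 controls and 1728 ± 248 CPM in WT (SD, n = 5 where not stated). In runners its log2 fold change was 0.27 (SE 0.11, unadjusted p = 0.0295, adjusted p = 0.239 by edgeR), with overlapping groups. Prnp, the prion protein gene, averaged 2179 ± 138 CPM in the combined group and 2006 ± 228 CPM with exercise (SD, n = 5 each), against 846 ± 98.7 CPM in WT (SD, n = 5). The difference in runners was 0.12 on the log2 scale (SE 0.096, adjusted p = 0.526 by edgeR). Counts of these genes cannot separate native transcripts from those of the transgenes.

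Transcripts of blood vessels were lower in the combined than in the exercise group. The endothelium lines brain vessels and forms the blood-brain barrier, and mural cells, the smooth muscle cells and pericytes, wrap around it. All 16 endothelial genes and all 16 genes of mural cells and fibroblasts had negative log2 fold changes, while 53.4% of all genes tested did. The median log2 fold change was -0.60 for mural cells and fibroblasts and -0.36 for the endothelium. At an unadjusted p under 0.05, 6 mural and 10 endothelial genes were lower, against 8.83% of all genes, and none of either list was higher. None passed over all genes by edgeR. DESeq2 called 4 mural genes and 1 endothelial gene, against 0.908% of all genes called lower, and voom called 2 and 3, against 2.43%.

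Contractile genes of smooth muscle showed the steepest differences. Acta2, the smooth muscle actin gene on chromosome 19 from 34241090 to 34255590, was at 5.76, 10.5, 5.51, 5.31 and 9.16 CPM in the combined libraries and at 26.0, 32.6, 15.9, 35 and 11.9 CPM in the exercise libraries. Every combined library lay below every exercise library, though exercise replicate 5 came close to combined replicate 2. The log2 fold change was -1.74 (SE 0.41, adjusted p = 0.114 by edgeR), or 3.35-fold lower. Its promoter is shown because serum response factor, the activator of smooth muscle genes, binds CArG boxes. The bases before the RefSeq start of the gene, on the minus strand of GRCm38.p6 at chr19:34255374-34255623, held 2 CArG-like boxes, in capitals, at 84 and 34 bases before the start. The GRCm38 annotation that gives the span of the gene places its start further upstream, so most of this stretch lies within that span.
Acta2: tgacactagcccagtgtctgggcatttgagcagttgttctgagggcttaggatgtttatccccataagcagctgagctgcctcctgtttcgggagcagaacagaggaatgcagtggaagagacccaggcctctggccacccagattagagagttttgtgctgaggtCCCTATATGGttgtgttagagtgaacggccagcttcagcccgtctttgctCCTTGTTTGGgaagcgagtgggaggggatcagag
A box was counted as CC, then 6 bases of which at least 5 were A or T, then GG, on either strand. Such a box stood in 2 of the 10 mural promoters with a sequence (20.0%), in 8.0% of the promoters of genes tested and in 8.7% of all promoters. A match of letters is a description and not a binding site.

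Other smooth muscle genes went the same way. Myh11, smooth muscle myosin, was at 8.73, 10.2, 10.1, 6.75 and 10.8 CPM in the combined libraries and at 20.9, 23.4, 16.1, 38.4 and 13.6 CPM in the exercise libraries, again without overlap, or -1.27 on the log2 scale (SE 0.36, adjusted p = 0.131 by edgeR). Cnn1, the contractile regulator calponin, lay between 0.202 and 0.416 CPM in the combined libraries and between 0.574 and 1.52 CPM in the exercise libraries (-1.91, SE 0.40, adjusted p = 0.0984 by edgeR). Its counts were low, and DESeq2 gave it no adjusted p. Tagln, an actin-binding protein of smooth muscle, was at -1.21 (SE 0.35, adjusted p = 0.131 by edgeR), and its groups overlapped.

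Eln, the elastic fibre protein of artery walls on the leading list of single genes, was at 3.79, 9.19, 8.54, 5.65 and 7.78 CPM in the combined libraries and at 20.9, 34.0, 12.8, 21.8 and 9.79 CPM in the exercise libraries. The highest combined value, in replicate 2, lay just under the lowest exercise value, in replicate 5, and the log2 fold change was -1.51 (SE 0.31, adjusted p = 0.0947 by edgeR). Vtn, vitronectin, made by brain pericytes, was at -0.56 (SE 0.15, adjusted p = 0.131 by edgeR) without overlap. The pericyte genes Pdgfrb, Rgs5 and Abcc9, chosen after their values were seen, were at -0.04, -0.02 and -0.04 in the list of mural cells and fibroblasts, while Lum, a collagen-binding proteoglycan of fibroblasts also chosen after its values were seen, was at -1.15 (SE 0.38).

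Endothelial genes differed by less, and more evenly. Tie1, an endothelial receptor tyrosine kinase, was at 9.09, 9.39, 10.9, 10 and 10.9 CPM in the combined libraries and at 19.5, 20.3, 13, 15 and 14.6 CPM in the exercise libraries. The groups did not overlap, with exercise replicates 1 and 2 the highest, and the log2 fold change was -0.71 (SE 0.15, adjusted p = 0.0947 by edgeR). Rasip1, needed for the vessel lumen, was at -0.51 (SE 0.11, adjusted p = 0.0987 by edgeR). Among the 16 listed genes, the barrier transporter Abcg2 was at -0.36 (SE 0.10) without overlap, the membrane protein Itm2a at -0.38 (SE 0.11), the organic anion transporter Slco1a4 at -0.35 (SE 0.11) and the junction protein Esam at -0.37 (SE 0.12), each with an adjusted p between 0.131 and 0.148 by edgeR. Summed over the brain endothelium list, the combined libraries held 384.7, 388.2, 465.3, 430.0 and 427.3 CPM and the exercise libraries 547.9, 547.8, 448.6, 536.9 and 493.1 CPM. These sums overlapped only through combined replicate 3 and exercise replicate 3.

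The levels in the other groups place these differences. The mean log2 CPM of the brain endothelium list was 4.43 ± 0.10 in the combined group, 4.74 ± 0.11 with exercise, 4.59 ± 0.12 with the drug alone, 4.51 ± 0.12 in APP/PS1 controls and 4.53 ± 0.12 in WT (SD, n = 4 with the drug alone and 5 otherwise). That of the mural cells and fibroblasts list was 2.98 ± 0.33, 3.68 ± 0.35, 3.81 ± 0.37, 3.54 ± 0.34 and 3.32 ± 0.53 in the same order. On both lists the combined group had the lowest mean of the 5 groups, and its libraries overlapped those of controls and WT. Exercise had the highest mean of the 5 groups on the endothelial list. The drug alone had the highest on the mural list, followed by exercise. Leaving out any single library kept both medians negative, from -0.40 to -0.26 for the brain endothelium and from -0.88 to -0.49 for mural cells and fibroblasts. Without combined replicate 5 and exercise replicate 4 they were -0.32 and -0.58.

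**Figure D1:**
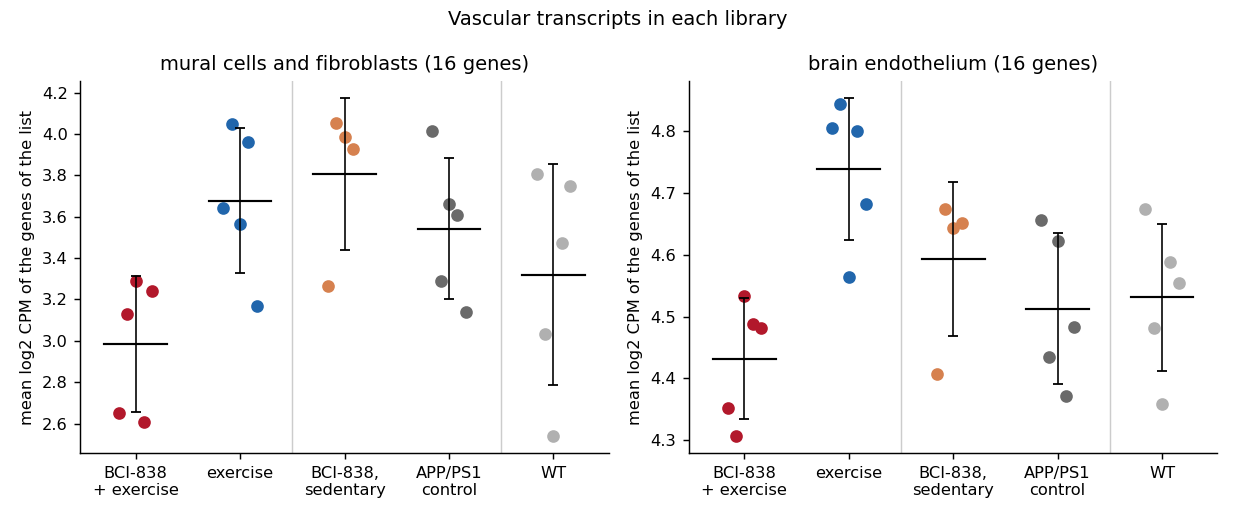
Mean log2 CPM of the 16 genes of mural cells and fibroblasts (left) and of the 16 endothelial genes (right) in each library of the 5 groups, with lines at the group mean and bars of 1 SD (n = 4 with BCI-838 alone, 5 otherwise). The combined libraries averaged 2.98 and 4.43, against 3.68 and 4.74 in the exercise libraries.

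Genes of protein synthesis were lower in the combined than in the exercise group by small amounts that nearly every member shared. All 78 cytosolic ribosomal protein genes tested had negative log2 fold changes, with a median of -0.26, and 66 had an unadjusted p under 0.05, against 8.83% of all genes lower at this p. None passed over all genes by edgeR. DESeq2 called 4 large and 6 small subunit genes (0.908% of all genes were called lower) and voom 37 and 27 (2.43%). The groups did not overlap in 1 of the 78, Rps26, against 0.864% of all genes. Without exercise replicate 2, 20 large and 18 small subunit genes had an unadjusted p under 0.05, and without exercise replicate 1, 24 and 18. Large subunit genes had a median of -0.25 over 46 genes, and small subunit genes one of -0.27 over 32. Mean log2 CPM of the large subunit list was 7.4 ± 0.08 in the combined group and 7.63 ± 0.26 with exercise. It was 7.39 ± 0.04 with the drug alone, 7.5 ± 0.11 in controls and 7.43 ± 0.1 in WT. The SD is over 4 libraries with the drug alone and 5 otherwise. For the small subunit the means were 7.21, 7.47, 7.22, 7.32 and 7.25 in this order. On both lists exercise had the highest mean of the 5 groups, and the combined group lay near the drug alone and WT. Many ribosomal protein genes have processed copies elsewhere in the genome, so the split of reads among copies is uncertain. Translation elongation and initiation factors did not share this direction as evenly. Of 27 such genes 18 were lower and 9 higher, with a median of -0.05. At an unadjusted p under 0.05, 6 of them were lower and 2 higher.

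Rps26, a small subunit protein, was at 128, 134, 114, 144 and 133 CPM in the combined libraries and at 185, 189, 145, 152 and 179 CPM in the exercise libraries (-0.38, SE 0.082, adjusted p = 0.0984 by edgeR). Exercise replicates 3 and 4 lay close to the combined libraries and replicates 1, 2 and 5 well above them. Rpsa, the laminin receptor of the small subunit, was at 294, 325, 252, 344 and 345 CPM in the combined libraries and at 481, 456, 336, 372 and 428 CPM in the exercise libraries (-0.41, SE 0.099, adjusted p = 0.115 by edgeR). Rpl8 of the large subunit was at -0.31 (SE 0.080) and Rpl36 at -0.41 (SE 0.12), both with an adjusted p of 0.131 by edgeR. The same exercise replicates, 3 and 4, were the lowest of their group for all of these genes.

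The promoters of Rps26 and Rpsa are shown for a motif that ribosomal protein promoters often carry, CCGGAAG, the core site of ETS factors such as GABPA. It stood on either strand in 18 of 58 ribosomal protein promoters (31.0%), in 11.4% of the promoters of genes tested and in 7.1% of all promoters. The lines give the 250 bases before the RefSeq start on GRCm38.p6, with the motif in capitals, for Rps26 from the minus strand at chr10:128626507-128626756 and for Rpsa from the plus strand at chr9:120127516-120127765.
Rps26: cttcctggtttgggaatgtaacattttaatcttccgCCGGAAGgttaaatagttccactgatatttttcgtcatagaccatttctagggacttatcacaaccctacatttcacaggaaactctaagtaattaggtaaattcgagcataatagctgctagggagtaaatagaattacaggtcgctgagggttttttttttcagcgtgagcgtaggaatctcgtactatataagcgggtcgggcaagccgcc
Rpsa: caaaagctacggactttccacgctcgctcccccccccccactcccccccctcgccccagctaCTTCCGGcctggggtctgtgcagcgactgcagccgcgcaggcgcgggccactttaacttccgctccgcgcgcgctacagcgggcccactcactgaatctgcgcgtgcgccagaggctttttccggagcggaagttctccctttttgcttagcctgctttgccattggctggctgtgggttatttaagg
In Rpsa the motif was found on the opposite strand and so reads as its reverse complement. For both genes the start in the GRCm38 annotation of gene spans lies within the stretch shown, upstream of the RefSeq start.

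Genes of the respiratory chain and of the proteasome had the same direction. Of 70 nuclear-encoded genes of the respiratory chain and ATP synthase 68 were lower, with a median of -0.18 and 28 at an unadjusted p under 0.05, against 8.83% of all genes. DESeq2 called 2 of them and voom 20. The count of 28 was 12 without combined replicate 3 or exercise replicate 1 or 2, 15 without exercise replicate 5, 18 without combined replicate 1 and 46 without exercise replicate 4. Ndufs7, a complex I subunit, was at -0.30 (SE 0.082, adjusted p = 0.131 by edgeR) and Cyc1, cytochrome c1 of complex III, at -0.22 (SE 0.073, adjusted p = 0.150 by edgeR). Of 43 mitochondrial ribosomal protein genes 40 were lower, with a median of -0.13. In 2 of these 43 all combined libraries lay below all exercise libraries, against 0.864% of all genes, and Mrps15 stood between 23.6 and 30.2 CPM in the combined libraries and between 30.6 and 38.2 CPM in the exercise libraries (-0.32, SE 0.071, adjusted p = 0.0987 by edgeR). Of 31 proteasome genes 27 were lower, with a median of -0.09 and 8 at an unadjusted p under 0.05, among them Psmb4 of the core particle at -0.21 (SE 0.067). That count was 2 without exercise replicate 2, 4 without combined replicate 3 or exercise replicate 1 or 5, 5 without combined replicate 5 and 14 without exercise replicate 4, which also put the median at -0.14, while it was -0.05 without exercise replicate 5. Of the 13 mitochondrially encoded genes listed, 0 were found by symbol among the deposited counts, so they could not be analysed.

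The direction of the difference varied with the exonic length of the gene, the bases covered by any of its annotated exons. Among 16023 genes with an annotated exonic length, the median log2 fold change by length was -0.09 up to 1000 bases, -0.12 from 1000 to 2000, -0.07 from 2000 to 4000, 0.00 from 4000 to 8000, 0.10 from 8000 to 16000 and 0.20 above 16000 bases. Of 292 genes longer than 16000 bases 84.59% were higher with the drug, and of 1998 genes between 1000 and 2000 bases 30.13% were. By the share of G and C bases in the longest transcript, the median was 0.06 up to 40% and -0.12 above 60%. Length and base content were not tested apart. The median exonic length was 1775 bases for large subunit ribosomal protein genes and 10058 bases for active zone scaffolds.

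The libraries of the exercise group differed among themselves in this measure. The median log2 deviation of genes over 8000 bases minus that of genes up to 2000 bases was 0.14, 0.01, 0.201, -0.028 and 0.049 in the combined libraries and -0.376, -0.353, 0.077, 0.116 and -0.242 in the exercise libraries. Exercise replicates 1, 2 and 5 lay below every combined library, and replicates 3 and 4 lay among them. The share of counts on rRNA-like loci was 0.288% ± 0.0848 in the combined group and 0.203% ± 0.0298 in the exercise group (SD, n = 5 each). The part of RNA quality and library preparation in these differences was not tested. After a correction of each library for exonic length, the median was -0.14 for large subunit and -0.16 for small subunit ribosomal proteins, -0.06 for the respiratory chain and ATP synthase, -0.01 for proteasome subunits, -0.28 for brain endothelium and -0.62 for mural cells and fibroblasts.

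**Figure D2:**
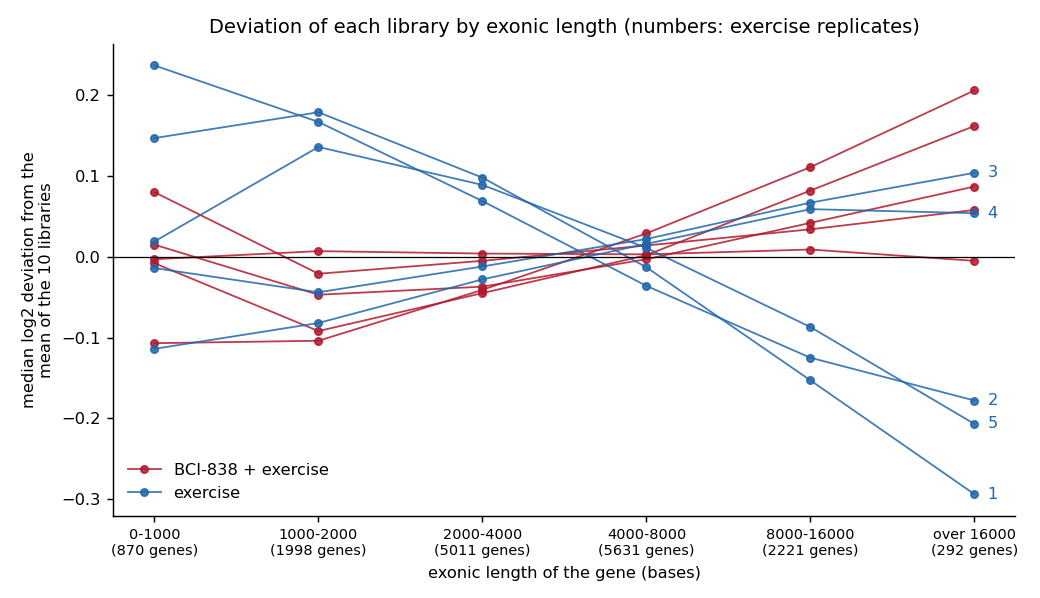
Median log2 deviation of each library from the mean of the 10 libraries (vertical axis) for genes in 6 ranges of exonic length (horizontal axis, number of genes in brackets), with numbers for the exercise replicates. Exercise replicates 1, 2 and 5 decline with length, while replicates 3 and 4 run among the 5 combined libraries.

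Lists of synaptic genes had positive medians. The active zone is the protein mesh at which synaptic vesicles fuse, and 12 of its 17 scaffold genes were higher (46.6% of all genes tested were), by a median of 0.23 and with 6 at an unadjusted p under 0.05, against 8.73% of all genes. Without combined replicate 5 the median was 0.14. Pclo, which encodes the scaffold piccolo and lies on chromosome 5 from 14514918 to 14863459, was at 489, 382, 505, 360 and 473 CPM in the combined libraries and at 201, 247, 330, 324 and 243 CPM in the exercise libraries. The groups did not overlap, with exercise replicates 3 and 4 the nearest, and the log2 fold change was 0.72 (SE 0.14, adjusted p = 0.0855 by edgeR). Bsn, which encodes the partner scaffold bassoon, was at 849, 622, 811, 436 and 778 CPM in the combined libraries and at 421, 406, 535, 456 and 480 CPM in the exercise libraries. It overlapped through combined replicate 4 (0.61, SE 0.15, adjusted p = 0.118 by edgeR). Rims1, which docks vesicles at calcium channels, was at 0.57 (SE 0.16) and its partner Rimbp2 at 0.59 (SE 0.17), both with overlap and with adjusted p = 0.131 by edgeR.

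Vesicle and adhesion genes had smaller medians. Of 38 genes for synaptic vesicle and SNARE proteins 26 were higher (median 0.12), 12 of them at an unadjusted p under 0.05, and in 2 all combined libraries lay above all exercise libraries, against 0.536% of all genes. These were Synj1, a lipid phosphatase that strips clathrin coats from vesicles, at 455 to 561 CPM in the combined libraries and 298 to 449 CPM in the exercise libraries (0.45, SE 0.11), and Syn2, a vesicle-tethering synapsin, at 481 to 775 CPM and 392 to 479 CPM (0.49, SE 0.13). Of 25 neurexin, neuroligin and adhesion genes 19 were higher (median 0.19, 10 at an unadjusted p under 0.05). The count was 6 without combined replicate 3 or exercise replicate 1, and the median was 0.29 without exercise replicate 4. The adhesion molecule Cadm2 was at 0.49 (SE 0.13) without overlap, and Nlgn1, a postsynaptic partner of neurexins, was at 0.45 (SE 0.13) with overlap.

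On the postsynaptic side, 22 of 25 scaffold and CaMKII genes were higher, with a median of 0.24, and 6 had an unadjusted p under 0.05, against 8.73% of all genes. Magi2 was at 168, 145, 165, 158 and 162 CPM in the combined libraries and at 109, 101, 138, 140 and 129 CPM in the exercise libraries (0.37, SE 0.097, adjusted p = 0.131 by edgeR), without overlap. Dlgap2 was at 0.66 (SE 0.18) and Shank2 at 0.43 (SE 0.12). Without combined replicate 5 the median of the postsynaptic density scaffolds and CaMKII was 0.14, with 3 genes at an unadjusted p under 0.05, and without combined replicate 5 and exercise replicate 4 it was 0.09. Pyramidal neuron markers of the CA fields, the neighbouring hippocampal areas, were also higher, in 17 of 20 cases with a median of 0.50 (0.28 without combined replicate 5), at a summed 1754 to 3199 CPM in the combined libraries and 1273 to 2223 CPM in the exercise libraries. In a fit with a covariate for the CA markers minus the granule markers, the median was 0.21 for postsynaptic density scaffolds and CaMKII, 0.17 for active zone scaffolds, 0.13 for synaptic vesicle and SNARE proteins and 0.19 for the neurexin list.

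Receptor subunits were mixed. Grin2b, an NMDA receptor subunit, was at 426, 224, 312, 275 and 527 CPM in the combined libraries and at 132, 121, 296, 212 and 198 CPM in the exercise libraries (0.88, SE 0.24, adjusted p = 0.131 by edgeR). Exercise replicate 3 overlapped with the combined libraries, and replicates 1 and 2 were the lowest. Grin2a was at 0.86 (SE 0.28), while Grin2d, the subunit of interneurons, was at -0.71 (SE 0.27). Of 7 NMDA subunit genes 4 were higher, and of 17 AMPA receptor genes 9 were higher. At an unadjusted p under 0.05, 2 AMPA receptor genes were higher and 2 lower. The higher ones were the AMPA auxiliary subunit Shisa6 at 0.74 (SE 0.27) and Gria3 at 0.35 (SE 0.14). The lower ones were Cnih3 at -0.63 (SE 0.23) and Cacng7 at -0.19 (SE 0.084). Of 13 GABA-A receptor genes 10 were higher. At an unadjusted p under 0.05 there were 2 higher and 1 lower, Gabrd at -0.60 (SE 0.21). The median of the GABA-A list was 0.23. This median was 0.11 without exercise replicate 1 and 0.14 without exercise replicate 2 or 5.

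Lists of ion channels, the axonal cytoskeleton and chromatin regulators had positive medians as well. Their median exonic lengths were 9902 bases for voltage-gated sodium and calcium channels, 7468 for potassium channels, 4798 for the axonal cytoskeleton and 13540 for chromatin regulators, against 4073 bases over all genes. Of 23 voltage-gated sodium and calcium channel genes 19 were higher (median 0.17, 9 at an unadjusted p under 0.05), among them the presynaptic calcium channels Cacna1b at 0.41 (SE 0.12) and Cacna1a at 0.36 (SE 0.12). Of 25 potassium channel genes 18 were higher (median 0.16), among them Kcnma1 at 0.64 (SE 0.20). Without exercise replicate 4 the medians of these 2 lists were 0.27 and 0.25. Of 11 genes for calcium release channels and pumps 8 were higher (median 0.29), with Ryr3 at 0.57 (SE 0.19) and the endothelial and glial channel Itpr3 at -0.69 (SE 0.24). Of 24 ankyrin, spectrin and cytoskeletal genes 16 were higher (median 0.21), and Ank3 and Ank2, which anchor membrane proteins along the axon, were at 0.34 (SE 0.079) and 0.29 (SE 0.072) without overlap. Of 36 chromatin regulators 33 were higher (median 0.16), among them the demethylase Kdm5b at 0.29 (SE 0.082) and the corepressor Ncor1 at 0.35 (SE 0.12).

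With the exonic length correction these medians shrank unevenly. The median was 0.12 for active zone scaffolds, 0.11 for synaptic vesicle and SNARE proteins, 0.16 for postsynaptic density scaffolds and CaMKII and 0.14 for voltage-gated sodium and calcium channels. It was 0.04 for ankyrins, spectrins and axonal cytoskeleton and 0.02 for chromatin regulators of the KMT2, SETD, CHD and KDM families. Ank2 changed sign under this correction, to -0.02.

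**Figure D3:**
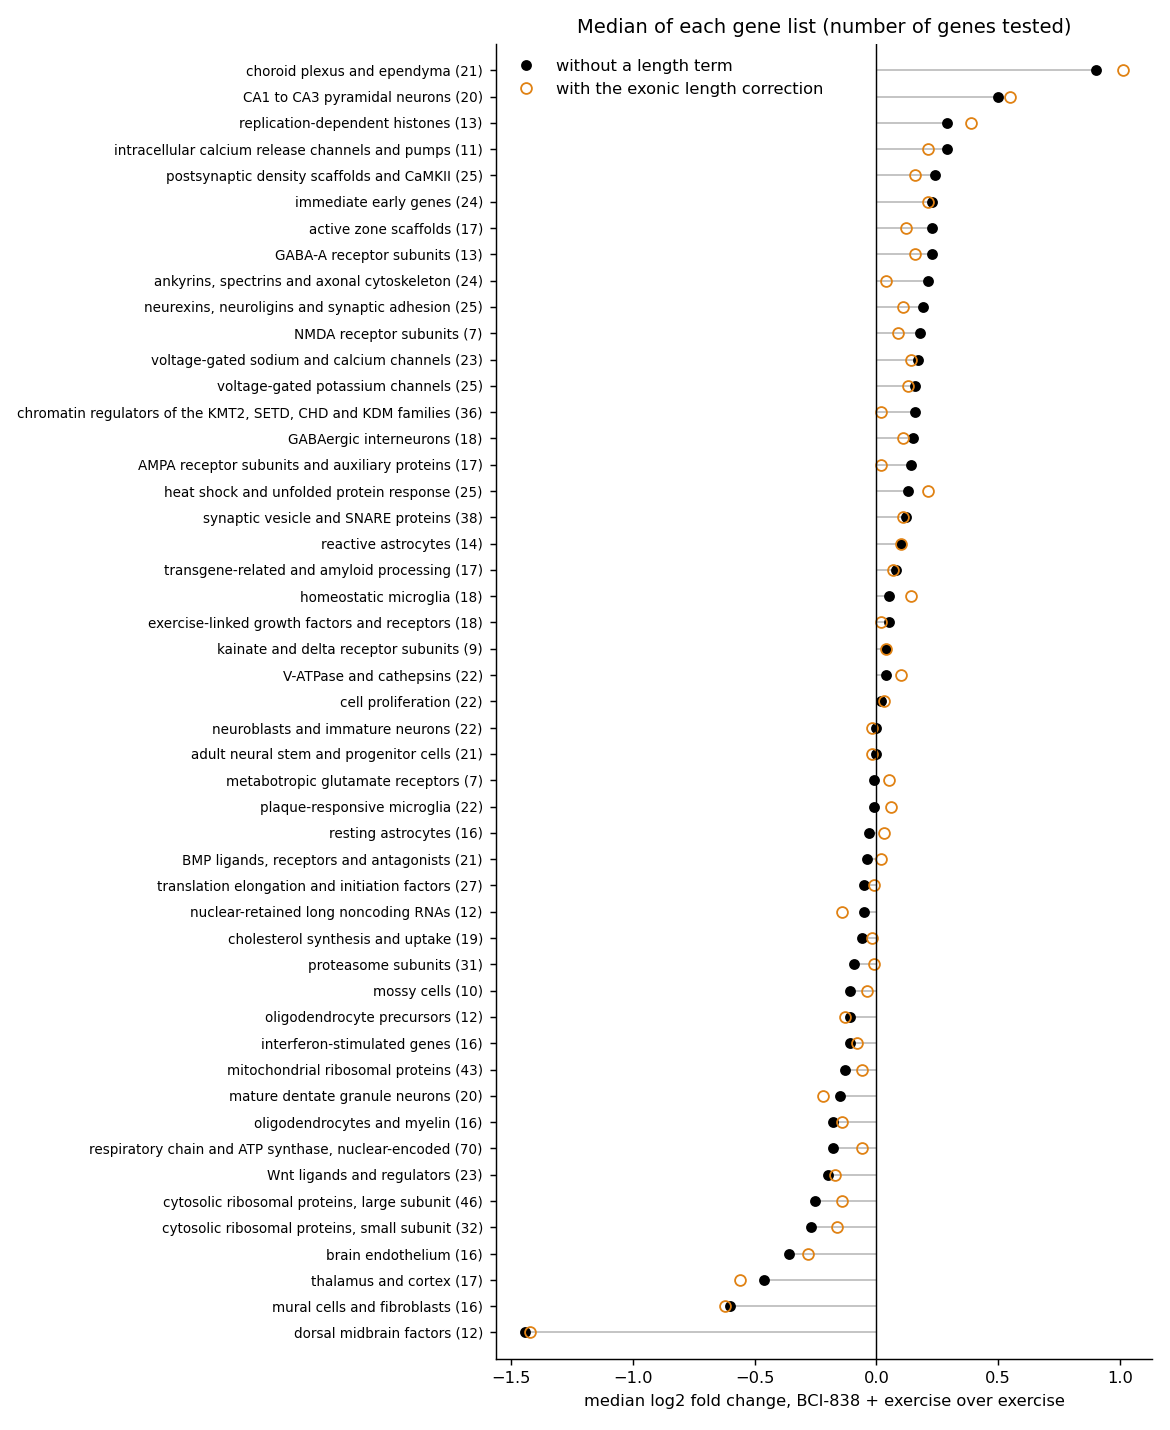
Median log2 fold change of BCI-838 with exercise over exercise for the 49 gene lists with at least 3 genes tested (number of genes in brackets), without a length term (filled) and with the exonic length correction (open). Mural cells and fibroblasts keep their place at -0.60 and -0.62, while chromatin regulators move to 0.02 with the correction, against 0.16 without it.

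A rule named the 15 genes of smallest p on either side. Dpy19l3, which attaches mannose to tryptophan residues of proteins, was at 97.0, 59.7, 106, 93.4 and 93.0 CPM in the combined libraries and at 45.9, 49.4, 60.5, 54.8 and 53.4 CPM in the exercise libraries. Combined replicate 2 lay at the level of the exercise libraries, and the other 4 lay well above them (0.77, SE 0.13, adjusted p = 0.0855 by edgeR). Trio, a guanine exchange factor for small GTPases in growing axons, was at 312, 259, 285, 258 and 308 CPM in the combined libraries and at 195, 193, 247, 227 and 221 CPM in the exercise libraries, without overlap (0.39, SE 0.082). Other regulators of small GTPases among the 15 were Rabgap1l (0.58, SE 0.12), Ralgps1 (0.50, SE 0.11), Madd, the exchange factor for vesicle-bound Rab3 (0.35, SE 0.078), the Rab11-binding Wdr44 (0.57, SE 0.12) and the exchange factor and kinase anchor Akap13 (0.77, SE 0.17).

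The remaining leading higher genes were Pclo and Ank3, given above, the diacylglycerol kinase Dgkb (0.91, SE 0.20), the endocytosis kinase Aak1 (0.44, SE 0.10), the mono-ADP-ribosyltransferase Parp8 (0.56, SE 0.12), Dopey2 (0.33, SE 0.073) and the clustered protocadherins Pcdhgb5 (0.85, SE 0.17) and Pcdhga9 (0.65, SE 0.14). Transcripts of the gamma protocadherin cluster share their 3′ exons, so reads may be split among them with uncertainty. Of the 15, 8 had groups that did not overlap, against 0.536% of all genes in this direction. Exercise replicate 1 was the lowest exercise library in 9 of them and replicate 2 in 6, and combined replicate 2 was the lowest combined library in 9. Of the 14 with an annotated length 11 exceeded 8000 bases, with a median of 11372 bases against 4073 bases over all genes. After the exonic length correction 13 of these 14 kept an unadjusted p under 0.05 in the same direction. The genes were picked by p in these same libraries, so high counts of both kinds follow largely from the choice.

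Among the 15 leading lower genes, Card10, a scaffold that links receptors to NF-kappaB, was at 6.24, 6.82, 7.43, 6.03 and 6.85 CPM in the combined libraries and at 13.4, 14.6, 9.59, 10.2 and 9.83 CPM in the exercise libraries. The groups did not overlap, and exercise replicates 1 and 2 were the highest (-0.79, SE 0.14, adjusted p = 0.0855 by edgeR). Besides Eln, Tie1, Rasip1, Cnn1 and Rps26, the rule named Plekhh3 (-0.57, SE 0.11), the mitochondrial iron importer Slc25a28 (-0.32, SE 0.061), the dynein chain Wdr34 of cilia (-0.34, SE 0.070), the DNA repair genes Mpg (-0.37, SE 0.077) and Fance (-0.38, SE 0.082), the protease inhibitor Cstb (-0.39, SE 0.084), the carbonyl reductase Dcxr (-0.60, SE 0.13) and Slc7a6os (-0.28, SE 0.058). Of the 15, 10 had groups that did not overlap, against 0.864% of all genes in this direction. Their median exonic length was 3202 bases, and all 15 kept an unadjusted p under 0.05 in the same direction after the exonic length correction. These genes too were picked by p in the same libraries, so both counts follow largely from the choice.

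**Figure D4:**
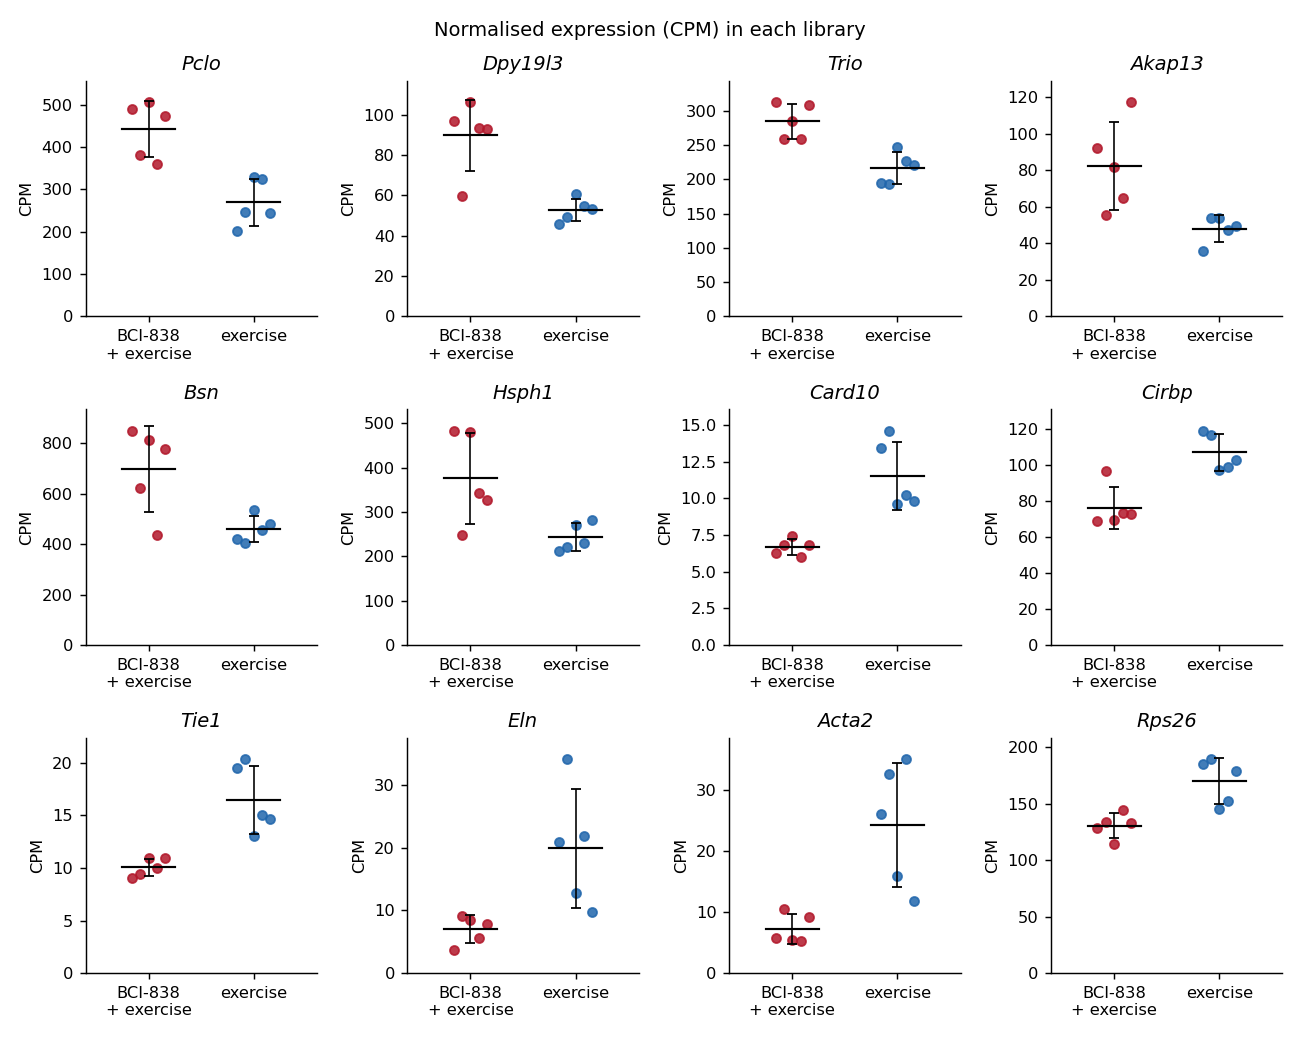
CPM of 12 genes in each combined and exercise library, with lines at the group mean and bars of 1 SD (n = 5 each). Pclo stands between 360 and 505 CPM in the combined libraries and between 201 and 330 CPM in the exercise libraries, and Tie1, Eln, Acta2 and Card10 lie lower in every combined library than in any exercise library.

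Chaperone genes were higher and the cold-shock gene Cirbp was lower. Cirbp, an RNA-binding protein induced by mild cold, was at 69.0, 96.5, 69.3, 73.5 and 72.7 CPM in the combined libraries and at 119, 117, 97.2, 99.2 and 103 CPM in the exercise libraries (-0.49, SE 0.094, adjusted p = 0.0855 by edgeR). The groups did not overlap, with combined replicate 2 just under the lowest exercise library. Of 25 genes of the heat shock and unfolded protein response 21 were higher, with a median of 0.13, and 8 had an unadjusted p under 0.05, against 8.73% of all genes. This count was 14 without combined replicate 2, 4 without combined replicate 1 or exercise replicate 2 and 5 without combined replicate 5. Hsph1, a cytosolic chaperone, was at 483, 248, 480, 344 and 326 CPM in the combined libraries and at 212, 221, 271, 230 and 283 CPM in the exercise libraries (0.63, SE 0.15, adjusted p = 0.115 by edgeR). Combined replicate 2 overlapped with the exercise libraries. Hspa5, the chaperone of the endoplasmic reticulum, was at 0.25 (SE 0.096), and the inducible Hspa1a and Hspa1b were at 0.31 (SE 0.12) and 0.63 (SE 0.22). With the exonic length correction the median of the heat shock and unfolded protein response was 0.21.

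Immediate early genes, which report recent neuronal activity, were higher in 16 of 24 cases with a median of 0.23, which was 0.13 without combined replicate 4. Nr4a3, an orphan nuclear receptor induced by activity, was at 38.2, 19, 27.6, 20.2 and 49 CPM in the combined libraries and at 6.73, 4.48, 22.7, 15.5 and 19.7 CPM in the exercise libraries (1.15, SE 0.37, adjusted p = 0.150 by edgeR). Exercise replicates 1 and 2 were the lowest, and the groups overlapped. Ptgs2, the inducible cyclooxygenase, was at 0.97 (SE 0.39), Homer1 at 0.63 (SE 0.26) and Jund at -0.19 (SE 0.078), all with overlapping groups. With the covariate for the CA markers minus the granule markers, the median of immediate early genes was 0.02. The part of the dissection in these values was not tested.

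Markers of neurogenesis showed no common direction. Of 21 stem and progenitor genes 11 were higher and 10 lower (median 0.00), of 22 proliferation genes 11 were higher and 11 lower (median 0.02), and of 22 neuroblast genes 11 were higher and 11 lower. Mcm3, a subunit of the replicative helicase, was at 2.78, 3.05, 3.29, 4.13 and 3.10 CPM in the combined libraries and at 4.74, 4.77, 4.75, 4.65 and 4.77 CPM in the exercise libraries. The groups did not overlap (-0.53, SE 0.12, adjusted p = 0.114 by edgeR). The Notch effector Hes5 was at -0.62 (SE 0.16) and the radial glial lipid carrier Fabp7 at -0.73 (SE 0.26). Among neuroblast genes Elavl2 was at 0.45 (SE 0.15) and Dpysl5 at -0.39 (SE 0.17). Of 20 mature granule neuron markers 16 were lower (median -0.15), including the calcium buffer Calb1 at -0.97 (SE 0.33), and this median changed sign, to 0.03, without combined replicate 5. It was -0.01 without combined replicate 4, -0.08 without exercise replicate 3, -0.24 and -0.34 without combined replicates 2 and 3 and -0.25 without exercise replicate 4.

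Secreted signals of the neurogenic niche were mixed. BMP signals hold adult stem cells in quiescence, and noggin binds and blocks them. Nog, which encodes noggin, was at 5.59, 7.80, 5.53, 6.65 and 6.85 CPM in the combined libraries and at 11.4, 9.55, 10.3, 12.0 and 8.72 CPM in the exercise libraries, without overlap (-0.68, SE 0.16, adjusted p = 0.114 by edgeR). The ligand Bmp7 was at -0.67 (SE 0.25), the target gene Id1 at -0.42 (SE 0.15) and the receptor Bmpr2 at 0.76 (SE 0.25), and of 21 BMP genes 10 were higher and 11 lower. Of 23 Wnt genes 17 were lower (median -0.20, or -0.32 without combined replicate 2), and Wnt9a was at -1.08 (SE 0.35) with overlapping groups. Of 18 growth factor and receptor genes linked to exercise 10 were higher. Igf2, a growth factor of the meninges and vessels that also stands in the mural list, was at -1.07 (SE 0.36), Vegfa at -0.25 (SE 0.12) and the receptor Igf1r at 0.34 (SE 0.096).

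Glial and amyloid lists had medians between -0.18 and 0.10. Of 18 homeostatic microglia genes 14 were higher, with a median of 0.05 over the list (at most 0.13, without combined replicate 2, when 1 library was left out) and none at an unadjusted p under 0.05, and of 22 plaque-responsive microglia genes 10 were higher and 12 lower. Within the plaque-responsive list Cd63 was at -0.40 (SE 0.13) and Gpnmb at 1.00 (SE 0.47). Of 14 reactive astrocyte genes 9 were higher (median 0.10), 3 of them at an unadjusted p under 0.05. Their median was 0.21 without combined replicate 2 and 0.04 without combined replicate 5. Serpina3n, a protease inhibitor of reactive astrocytes, was at 116, 37.7, 69.3, 69.3 and 67.8 CPM in the combined libraries and at 29.2, 27.3, 37.4, 23.5 and 50 CPM in the exercise libraries (1.1, SE 0.29, adjusted p = 0.131 by edgeR), overlapping through combined replicate 2. Gfap was at 0.48 (SE 0.23) and complement C4b at 0.47 (SE 0.21). Among 17 genes of amyloid processing, the alpha-secretase Adam10 was at 0.30 (SE 0.10), Aph1a and Psen2 of the gamma-secretase were at -0.20 (SE 0.065) and -0.20 (SE 0.076), and the lipoprotein Apoe was at -0.27 (SE 0.096). Of 16 oligodendrocyte genes 14 were lower (median -0.18), at a summed 2495 to 13738 CPM in the combined libraries and 6023 to 9457 CPM in the exercise libraries, and the median was 0.04 without combined replicate 1, -0.06 without combined replicate 3, -0.61 without combined replicate 4 and -0.09 without exercise replicate 5.

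Interneuron and neighbouring tissue lists complete the account. Of 18 interneuron genes 12 were higher and 6 lower, with a median of 0.15 that lay between 0.05 (without exercise replicate 2) and 0.29 (without exercise replicate 4) when 1 library was left out. At an unadjusted p under 0.05, 2 were higher and 1 lower. These were the peptide Npy at 0.99 (SE 0.38), the cannabinoid receptor Cnr1 at 0.62 (SE 0.21) and Tac1 at -0.75 (SE 0.34). Of 21 choroid plexus and ependyma genes 19 were higher (median 0.90), and without combined replicate 5 the median was -0.29. All 12 dorsal midbrain factors tested were lower (median -1.44), at a summed 4.682 to 45.95 CPM in the combined libraries and 8.519 to 121.4 CPM in the exercise libraries. Without combined replicate 5 and exercise replicate 4 their median was -0.15, without exercise replicate 4 alone it was -0.28 and without combined replicate 2 it was -2.81. Of 17 thalamus and cortex markers 14 were lower (median -0.46).

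Whether the drug acted differently in runners and in sedentary mice was tested as the difference of both effects, which share no library. No gene was called by edgeR (lowest adjusted p 0.272), with 1756 genes (9.60%) at an unadjusted p under 0.05, of which 982 (5.37%) were positive and 774 (4.23%) negative. DESeq2 called 77 of the 18286 genes, 69 positive and 8 negative, and voom called 0. The count of 1756 genes was 646 without the libraries over 100 Ttr CPM and 871 with the choroid plexus covariate. Of the sedentary comparison alone, 0 genes were called by edgeR and 1863 (10.2%) had an unadjusted p under 0.05. Across 18286 genes the effects in runners and in sedentary mice had a Pearson correlation of -0.15, with the same sign in 56.57% of genes, where the effects come from different mice but all genes of a library share its composition. Dorsal midbrain factors summed to 60.72 to 114.5 CPM in the drug-alone libraries and 9.120 to 90.83 CPM in controls. Their median was 1.42 in sedentary mice and their median difference -2.78. The choroid plexus and ependyma list had a sedentary median of -3.94 and a median difference of 4.83. The part of dorsal midbrain tissue in the differences below was not tested.

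Vascular genes stood on opposite sides in the 2 settings. The median log2 fold change of mural cells and fibroblasts was -0.60 in runners and 0.27 in sedentary mice, and that of the brain endothelium was -0.36 and 0.10. The median difference was -0.81 over the mural list and -0.41 over the endothelial list. On each list 9 of 16 genes were negative at an unadjusted p under 0.05, against 4.23% of all genes. Acta2 averaged 7.24 ± 2.41 CPM in the combined group, 24.3 ± 10.1 CPM with exercise, 18.6 ± 9.78 CPM with the drug alone, 11.7 ± 7.48 CPM in APP/PS1 controls and 8.36 ± 3.12 CPM in WT (SD, n = 4 with the drug alone, 5 otherwise). Its difference between the effects was -2.41 (SE 0.59, adjusted p = 0.272 by edgeR), and those of Cnn1 and Myh11 were -2.40 (SE 0.57) and -2.16 (SE 0.51). Eln was at -1.81 (SE 0.45) and Tie1 at -0.75 (SE 0.21). The controls included 3 libraries with Ttr between 425 and 1615 CPM. Without all libraries over 100 Ttr CPM the difference for Acta2 was -1.81, the median over mural cells and fibroblasts was -0.70, with 3 of its genes at an unadjusted p under 0.05, and that over the brain endothelium was -0.27, with 4.

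The postsynaptic density list had a positive difference between the settings. Over the 25 genes of the postsynaptic density the median was 0.24 in runners and -0.21 in sedentary mice. Their median difference was 0.45, with 11 genes positive (5.37% of all genes were) and 2 negative (4.23%) at an unadjusted p under 0.05. Without the libraries over 100 Ttr CPM it was 0.33, with 3 genes positive and 0 negative. The other synaptic lists had median differences of 0.04 for active zone scaffolds, 0.07 for the neurexin list and 0.13 for synaptic vesicle and SNARE proteins, and the CA1 to CA3 pyramidal neurons one of 0.65. With the covariate for the CA markers minus the granule markers, the postsynaptic density difference was 0.44. Immediate early genes had medians of 0.23 and -0.16, with a median difference of 0.38, which was 0.25 without combined replicate 5, 0.18 with that covariate and 0.15 without combined replicate 5 and exercise replicate 4 or with voom. Of single genes, Adra1d, an alpha-1 adrenergic receptor, was at 66.8 ± 14.9 CPM in the combined group, 52.4 ± 13 CPM with exercise, 24 ± 8.14 CPM with the drug alone and 56.6 ± 16.7 CPM in controls (SD, n = 4 with the drug alone, 5 otherwise). All 4 drug libraries lay below all 5 controls, while runners overlapped, and the difference of the effects was 1.59 (SE 0.34, adjusted p = 0.272 by edgeR). Ribosomal proteins were lower in both settings, with medians of -0.25 in runners and -0.10 in sedentary mice over the large subunit. The other positive leaders were Ttr (12.77), Calml4 (8.54), F5 (6.68) and Ccdc146 (3.79), each highest among runners in combined replicate 5, and without the libraries over 100 Ttr CPM the differences were 0.43 for Ttr, 4.18 for Calml4, 0.13 for F5 and 1.65 for Ccdc146. The other negative leaders were Ankrd22 (-8.05) and the desmosomal cadherin Dsc3 (-6.00), both under 1 CPM in most libraries.

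**Figure D5:**
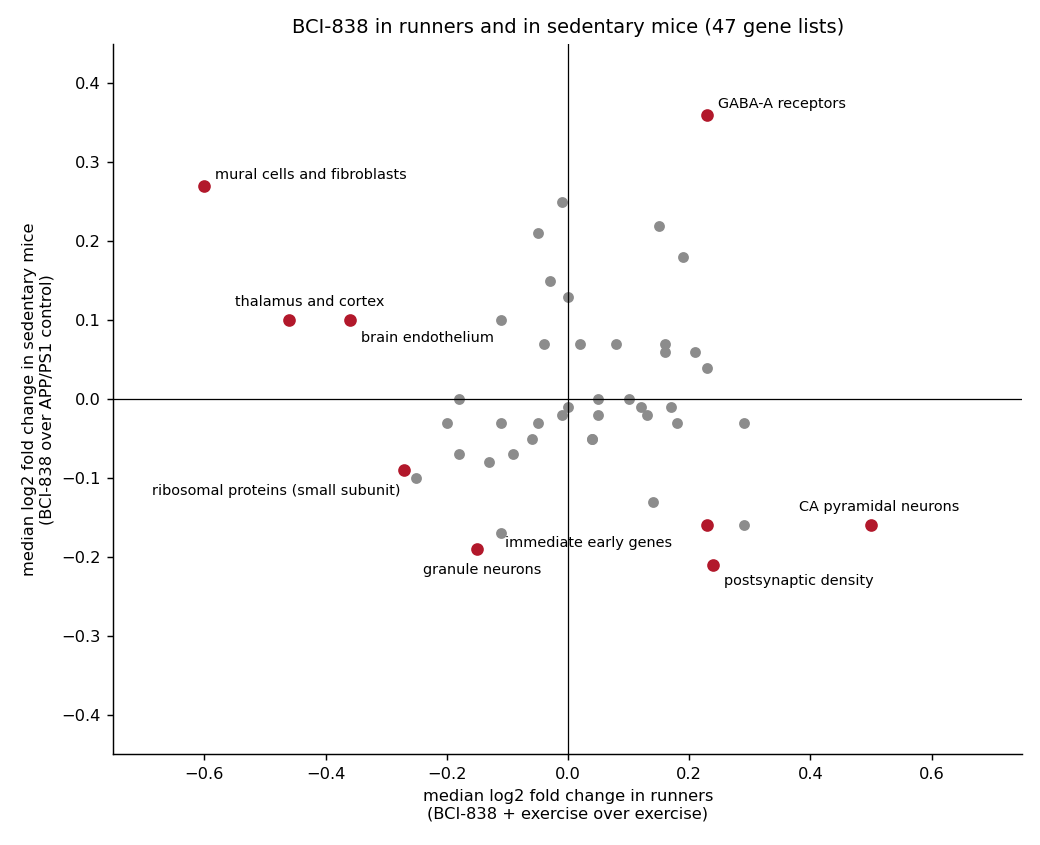
Median log2 fold change with BCI-838 in runners (horizontal axis, over exercise) and in sedentary mice (vertical axis, over APP/PS1 controls) for 47 gene lists, with 9 lists named. The choroid plexus list (0.90 in runners and -3.94 in sedentary mice) and the dorsal midbrain list (-1.44 and 1.42) lie beyond both axes and are not drawn. Mural cells and fibroblasts lie at -0.60 and 0.27 and the postsynaptic density list at 0.24 and -0.21.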

How the data were processed

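The authors deposited whole-number counts of reads per gene in 1 table of the series. Per the submitters' processing notes STAR, HTSeq and DESeq were used with the mouse build mm10; the sources used here do not give versions or the strand setting, so overlapping genes cannot be separated with certainty. RNA integrity was checked by the authors, per the labels. Genes came from the deposited table, coordinates and lengths from the GRCm38 annotation, promoters from RefSeq (GRCm38.p6).

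Of 26667 genes, 18286 passed filterByExpr of edgeR (minimum count 10, minimum total 15). Counts of all 24 libraries were scaled with TMM factors and fitted with 1 mean per group and tested with edgeR 4.0.16 under R 4.3.3 (quasi-likelihood F test, robust), with Benjamini-Hochberg adjustment over all genes. The SE is the log2 fold change over the square root of F. List levels are mean log2 CPM with a prior count of 2. Totals were 48656360 to 64632882 per library, and no pair of libraries agreed within sampling noise (lowest chi-square per gene 25.9).

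Alternatives were DESeq2 1.42.0, limma 3.58.1 (voom with quality weights), 1 surrogate variable (sva 3.50.0), DESeq size factors, no filter or a filter of 1 CPM in 5 libraries, covariates for choroid plexus or CA field minus granule markers, the compared libraries alone, the replicate number as a block, an offset for exonic length, and leaving out each library or those over 100 Ttr CPM. Leaving out combined replicate 5 and exercise replicate 4 together was chosen after seeing the data. The members and the 50 lists were chosen with earlier results of these data known, so no list has a p; of 1047 list genes 1029 were found in the table, 23 of them by an older symbol.

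Named genes were the 15 smallest p in each direction in runners, the 5 in each direction of the difference between runners and sedentary mice (without predicted genes), Grm2, Grm3, App and Prnp, and up to 4 genes of each list; others are said to be chosen after their values were seen. The fit was tested on simulated counts.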

Additional observations from a re-analysis of the deposited data

Results flagged for a closer look

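A library was flagged where its gap to the next library over the range of its group exceeded the critical value of Dixon's test. This flagged a single library against the other 4 of its group in 19 of 260 groups of values examined. For normal and independent values, chance flags about 1 group in 20. The gap itself can be small, as for Mcm3 in exercise replicate 4, at 4.65 CPM against 4.74 CPM in the next library. Combined replicate 2 gave 7 of the 19 flags. It was the lowest of its group for App at 3340 CPM, Dpy19l3 at 59.7 CPM, Hspa1a at 10.1 CPM and Adam10 at 71.4 CPM, and the highest for Plekhh3 at 22.6 CPM, Cirbp at 96.5 CPM and Pou4f1 at 0.743 CPM. Combined replicate 5 gave 5, being the highest for Ttr at 297 CPM, F5 at 4.45 CPM, Ccdc146 at 1.63 CPM, Calml4 at 1.34 CPM and the microglial receptor Cx3cr1 at 68.2 CPM. Combined replicate 4 was the highest for Rpl8 at 285 CPM and for Ankrd22 at 0.0490 CPM, and combined replicate 1 the lowest for Bmp7 at 1.44 CPM. In the exercise group, replicate 3 was the highest for Madd at 232 CPM and the lowest for Cstb at 17.2 CPM, and replicate 4 was the highest for Pou4f1 at 7.79 CPM and the lowest for Mcm3 at 4.65 CPM.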

How the results depend on the processing

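The count of genes called in runners was 0 by edgeR, 374 with DESeq2, 1012 with voom, 35 with 1 surrogate variable, 1 with the CA field minus granule covariate and 1 with the exonic length correction. Leaving out 1 library gave 0 to 400 calls, with 400 without exercise replicate 3, 83 without combined replicate 2, 10 without exercise replicate 4 and 3 without combined replicate 4. DESeq size factors, no filter, a filter of 1 CPM in 5 libraries, the compared libraries alone (2342 genes at an unadjusted p under 0.05), the choroid plexus covariate and leaving out the libraries over 100 Ttr CPM, or combined replicate 5 with exercise replicate 4, gave 0. For the difference between runners and sedentary mice DESeq2 called 77 genes, and leaving out 1 library gave 0 each time. With the replicate number as a block 0 genes were called in runners (lowest adjusted p 0.0573 by edgeR). The correlations between libraries of the same number were -0.005, 0.162, 0.053, 0.112 and 0.131. Combined replicates 4 and 5 correlated best with their own number and the other 3 did not. Whether the numbers pair the mice was not tested beyond these correlations. Of 2752 values tried for 120 genes 18 changed sign, 258 moved past the threshold and 2476 did neither, and 12 of 1127 list medians moved by more than the spread. Grm3 was at 0.05 with 1 surrogate variable, with the exonic length correction and without combined replicate 1, at 0.03 with the choroid plexus covariate and without combined replicate 2 or exercise replicate 3, at 0.02 without combined replicate 3 or exercise replicate 5, at 0.04 without exercise replicate 4 and at 0.01 without both libraries that stand apart. Leaving out 1 library put Grm3 between -0.12 and 0.05, Ttr between -0.79 and 4.33 and F5 between -0.56 and 1.79. Ank2 was at -0.02 with the exonic length correction. Ttr was at -0.79 without libraries over 100 Ttr CPM or without combined replicate 5, and at -0.93 without both libraries that stand apart. F5 was at -0.06 with the choroid plexus covariate, at -0.56 without libraries over 100 Ttr CPM or without combined replicate 5, and at -0.46 without both libraries that stand apart. The cause of these moves was not tested beyond the libraries left out. The median standard error of a log2 fold change was 0.148 with 5 mice per group, at totals of 48656360 to 64632882 counts per library.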
